A study of Homo sapiens with 12 samples.

Results

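Huh7, an established line from a human hepatocellular carcinoma, was compared 48 h after transfection with an siRNA and after transfection with a negative control RNA, with 3 arrays per group. The members described are all transcript cluster rows that carry 1 gene name, chosen by row type and name and not by their values, which gave 22411 named genes among 66158 tested rows. The series holds 12 arrays, and the other 6 repeat the same design in Hep3B, another human liver cancer line. Per the labels, all cells grew in minimum essential medium with fetal bovine serum, and total RNA was measured. The long non-coding RNA in the series title is RP11-556E13.1, and the comparison asks how the transcriptome responds to the siRNA. The labels do not name the siRNA's target, its sequence or how many siRNAs were used, and the level of that RNA is not analysed here because no row was matched to it by name. Every group was transfected and no untransfected cells are among them, and each line stands for 1 tumour. Whether the arrays of 1 group stand for separate cultures is not in the labels. The p-values therefore reflect the spread among these arrays, which may be technical, and their small number limits the precision.

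Hepatocytes secrete most proteins of blood plasma, among them albumin, the fibrinogen chains, complement and protease inhibitors, and their genes are driven by liver transcription factors such as HNF4A, FOXA, CEBP and ONECUT1. The same cells dispose of ammonia through the urea cycle, detoxify foreign compounds, make cholesterol and bile acids, export lipoproteins, and store or burn fatty acids and glucose. Liver cancer lines keep part of this programme: they still express albumin, apolipoprotein B and fetal proteins such as AFP, while many enzymes of the mature liver are low.

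Values are log2 levels after quantile normalization of the 12 arrays, and each change is siRNA minus control in the same units, with its standard error (SE) from a limma fit and a p adjusted over all tested rows. A gene is said to have risen or fallen where that adjusted p was under 0.05. A row counts as above background where at least 1 group mean in Huh7 passed 5.50, the highest mean of 23 background rows, and 8144 named genes did. Where the lower group lay within background, the change is a lower bound. Correlations were taken over the 8775 named genes that passed 5.50 in at least 1 group mean of either line. Huh7 arrays of the same group correlated at r = 0.992 to 0.996 and siRNA with control arrays at r = 0.975 to 0.981. Huh7 control array 1 has conflicting labels, since only its description says Hep3B, and it correlated at r = 0.994 and 0.996 with the other Huh7 controls and at r = 0.860 to 0.880 with Hep3B arrays. Of 9 measured hepatocyte and liver cancer markers 8 were above background. Of 10 endothelial markers none was above background, and of 9 fibroblast and stellate markers only RGS5 was, at 5.59, 5.80 and 5.80 in the control arrays and 5.76, 5.87 and 5.83 in the siRNA arrays. Among 8 blood cell markers LYZ and CD68 were above background while PTPRC, CD3E, CD14 and HBB were within it, and the mean level of the list ran from 5.63 to 5.69 in the control arrays and from 5.66 to 5.83 in the siRNA arrays. Among 8 cholangiocyte markers 6 were above background, and the mean of that list ran from 7.14 to 7.19 in the control arrays and from 6.95 to 7.06 in the siRNA arrays.

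In Huh7, 1549 named genes fell (6.91% of those tested) and 1531 rose (6.83%), while all 3 siRNA arrays lay on 1 side of all 3 controls in 31.8% of named genes and in 55.5% of those above background. The split depends on the scaling: with each array centred on its median, 898 fell and 1682 rose, and with the deposited values 1126 fell and 1728 rose. The median change of named genes above background was -0.04 in the normalization used here, 0.05 with median centring and 0.02 as deposited, so the text reads list medians against it. Fitted on the 6 Huh7 arrays by themselves, 713 fell and 819 rose.

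Listed genes of liver function, lipid metabolism and energy metabolism fell far more often than they rose. The lists were chosen with earlier results of these data known, so their shares describe these arrays and are not an independent test. Of 275 measured genes in 10 lists of hepatocyte function, 80 fell (29.1%) and 9 rose (3.27%). Of 254 genes in 9 lipid lists 59 fell (23.2%) and 14 rose (5.51%), and of 295 genes in 12 energy lists 84 fell (28.5%) and 14 rose (4.75%). These stand beside 6.91% and 6.83% of all named genes, a larger part of which lay within background. Among members above background, 52.1% of hepatocyte, 36.7% of lipid and 37.5% of energy genes fell, against 17.4% of all named genes above background. Of the same members 4.23%, 7.59% and 6.48% rose, against 16.2%. The median changes over all measured members were -0.12, -0.11 and -0.13, against -0.02 over all named genes. Among members with a mean level of 10 or more, 25 of 32 hepatocyte genes (78.1%), 15 of 27 lipid genes (55.6%) and 26 of 43 energy genes (60.5%) fell, against 23.1% of the 1323 named genes of that brightness. Of the same bright members 3.12%, 18.5% and 6.98% rose, against 21.5%. Median centring left 62 hepatocyte, 42 lipid and 47 energy genes lower. Of the 221 lower and 37 higher members of the 31 lists, 211 and 32 were above background. Without control array 1, whose labels conflict, 68, 48 and 66 fell, and without control array 3 the energy count was 52. The count of higher hepatocyte genes was 5 without Huh7 control 2, without Huh7 siRNA 1 or without Huh7 siRNA 2. In bulk RNA, fewer cells that make a transcript and less of it per cell cannot be told apart.

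**Figure D1:**
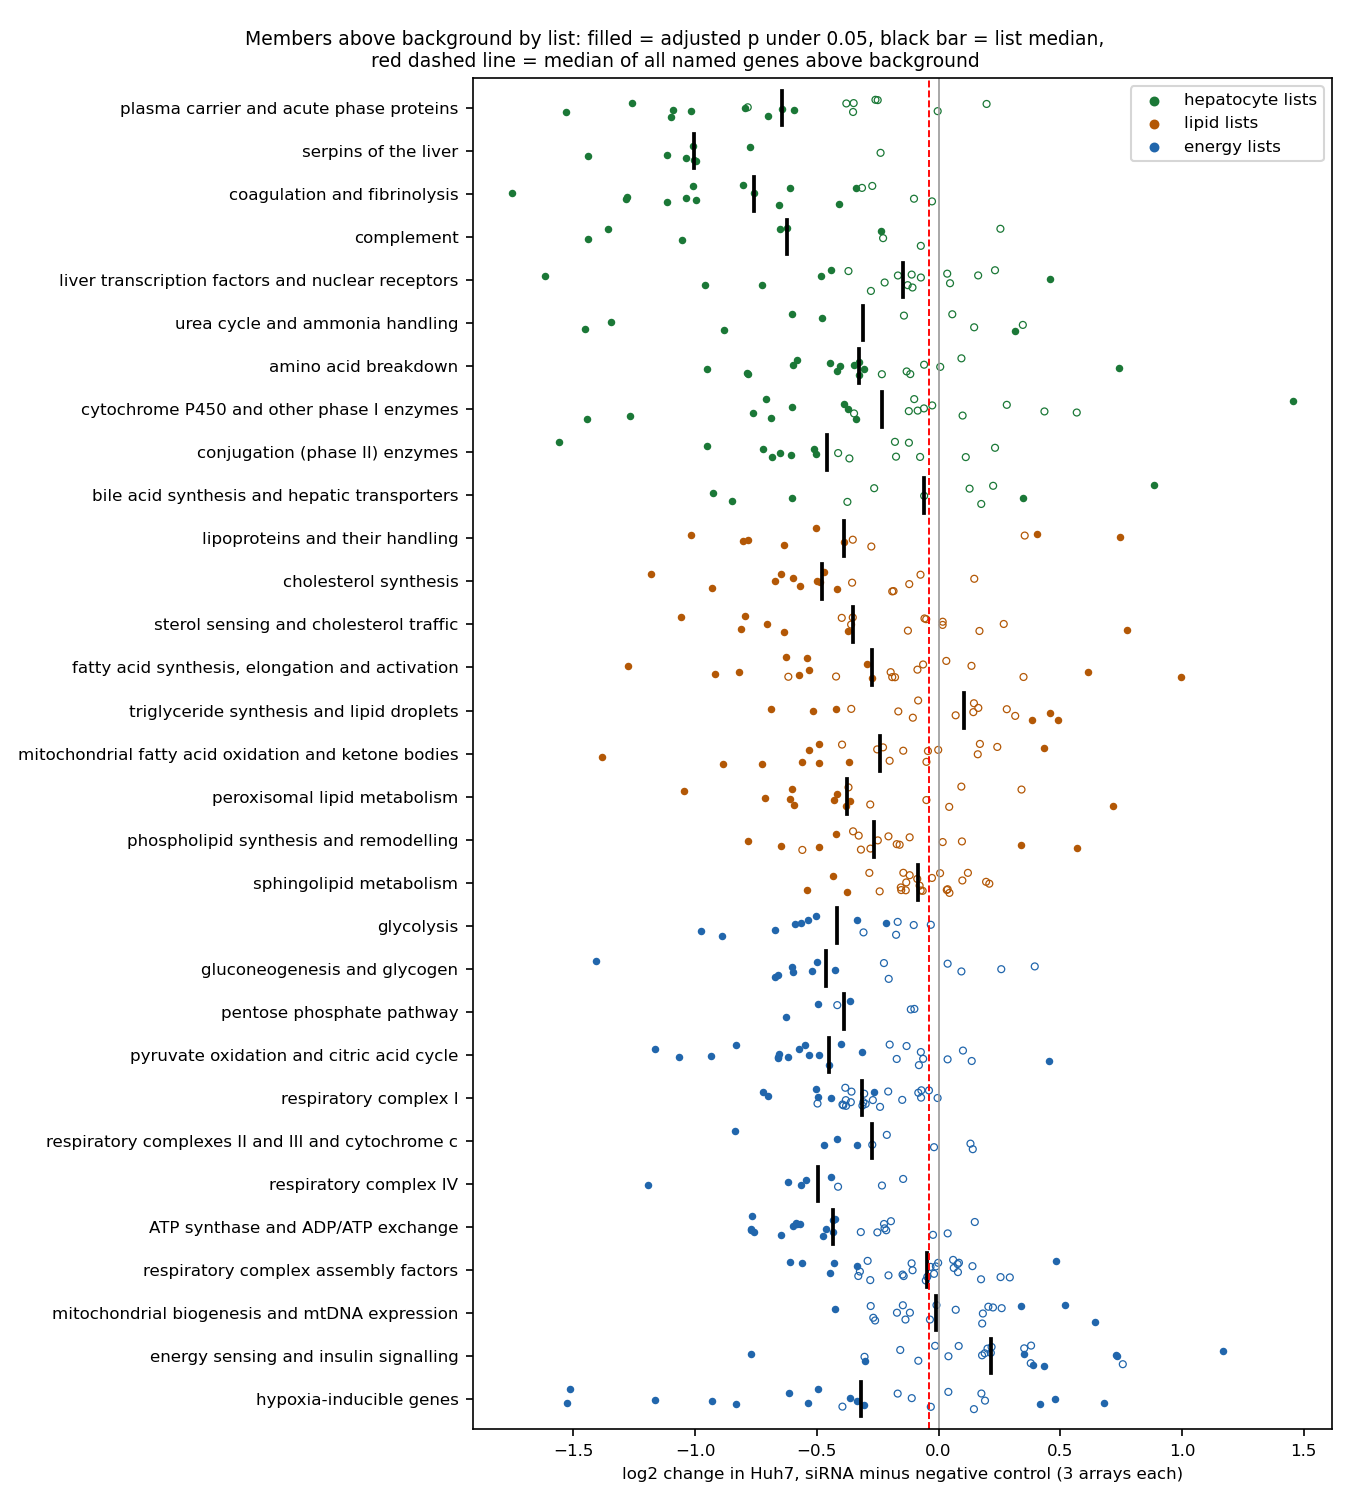
Each point is 1 gene above background in Huh7, placed by its log2 change (siRNA minus control, 3 arrays each) in the list named on the left. Filled points passed an adjusted p of 0.05, black bars are list medians, and the red dashed line is the median of all named genes above background at -0.04. The medians of all secreted protein, cholesterol synthesis, glycolysis and respiratory chain lists lie to its left, and those of triglyceride synthesis and of energy sensing lie to its right at 0.11 and 0.21.

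Among the secreted carriers of plasma, 9 of 26 measured genes fell and none rose (median log2 change -0.31 over all 26 and -0.64 over the 17 above background). ALB, serum albumin and among the brightest rows of the line, stood at 18.18, 18.15 and 18.17 in the control arrays and 17.06, 17.15 and 16.99 in the siRNA arrays. Its groups lay far apart with little spread, and differed by -1.10 ± 0.05 (SE, limma adjusted p = 1.82e-06), or 2.14-fold lower. AFP, the fetal counterpart of albumin and a marker of liver cancer, stood at 10.91, 10.82 and 10.48 in the control arrays and 9.57, 9.55 and 9.32 in the siRNA arrays. The AFP groups did not overlap and differed by -1.26 ± 0.16 (SE, limma adjusted p = 0.000509). ITIH2, a heavy chain of the inter-alpha inhibitors, which carry bikunin in plasma, gave 13.19, 13.18 and 13.40 in the control arrays and 12.33, 12.16 and 12.01 in the siRNA arrays. ITIH2 was lower on each siRNA array, with a change of -1.09 ± 0.09 (SE, limma adjusted p = 5.01e-05). AMBP, the precursor of alpha-1-microglobulin and bikunin, gave 14.20, 14.17 and 14.37 in the control arrays and 13.10, 13.03 and 13.56 in the siRNA arrays. AMBP lay below the controls on all 3 siRNA arrays, a change of -1.02 ± 0.13 (SE, limma adjusted p = 0.000676). The heavy chains ITIH1, ITIH3 and ITIH4 were within background. ORM1 and ORM2, the orosomucoids of the acute phase, changed by -0.79 ± 0.07 and -0.64 ± 0.08; they are near-identical copies whose signals may mix. SELENOP, the selenium carrier, stood at 11.32, 11.32 and 11.25 in the control arrays and 10.78, 10.67 and 10.34 in the siRNA arrays. The SELENOP groups did not overlap and differed by -0.70 ± 0.11 (SE, limma adjusted p = 0.00225).

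Bright secreted genes did not all move. AHSG, fetuin-A, stood at 12.31, 12.28 and 12.43 in the control arrays and 12.63, 12.35 and 12.02 in the siRNA arrays, groups that overlapped around the same mean (limma adjusted p = 0.994). RBP4, the retinol carrier, gave 12.37, 12.43 and 12.39 in the control arrays and 12.35, 12.35 and 11.74 in the siRNA arrays, with all siRNA arrays below the controls but 2 of them only just, a change of -0.25 ± 0.14 (limma adjusted p = 0.398); it was chosen after its values were seen. APOH, beta-2-glycoprotein I, fell but with a wide spread, at 13.26, 13.73 and 14.04 in the control arrays and 12.66, 12.63 and 11.15 in the siRNA arrays. APOH was lower on each siRNA array, with a change of -1.53 ± 0.34 (SE, limma adjusted p = 0.0182). Its adjusted p was 0.0562 without control array 2, 0.0731 without control array 3 and 0.12 on the Huh7 arrays alone.

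Promoters of many liver-secreted genes hold a split palindrome that liver transcription factors of the HNF1 family bind. The letters searched here, GTTAATNAT, stand for a half-site with a spacer and not for the whole palindrome. The promoters of 3 genes that fell are shown with these letters, on either strand, in capitals. The matches lie within the bases before the start of transcription given by RefSeq (GRCh38.p14). C4BPA, which also fell, holds a match at position -50 and is not shown. The AFP window is chr4:73436071-73436220, plus strand, the ALB window chr4:73404137-73404286, plus strand and the FGA window chr4:154590743-154590892, minus strand, each the last 150 bases before the start, written 5′ to 3′ along the gene.

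AFP: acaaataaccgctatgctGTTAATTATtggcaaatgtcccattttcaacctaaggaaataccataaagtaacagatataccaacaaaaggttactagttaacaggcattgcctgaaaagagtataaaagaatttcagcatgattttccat
ALB: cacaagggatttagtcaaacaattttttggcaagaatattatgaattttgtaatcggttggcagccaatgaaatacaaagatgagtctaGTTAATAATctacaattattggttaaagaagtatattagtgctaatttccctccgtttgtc
FGA: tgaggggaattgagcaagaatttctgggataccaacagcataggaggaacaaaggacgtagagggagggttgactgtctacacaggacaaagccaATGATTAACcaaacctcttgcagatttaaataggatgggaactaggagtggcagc

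The match begins at position -132 from the start in AFP, -61 in ALB and -55 in FGA. The search covered 250 bases before to 50 after each start. Of 83 measured genes in the 4 secreted protein lists 67 had a promoter in the table, and 7 of these (10.4%) held the letters, against 0.751% of all 27305 promoters. A match is a description of the sequence, not a measured binding site.

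Protease inhibitors of the serpin family fell without exception among those that passed: 7 of 14 measured genes fell, none rose (median log2 change -0.53 over all 14 and -1.01 over the 8 above background), and all 8 above background had a change below 0. SERPING1, the inhibitor of the first complement component and of plasma kallikrein, stood at 13.65, 13.68 and 13.26 in the control arrays and 12.49, 12.09 and 11.68 in the siRNA arrays. SERPING1 lay below the controls on all 3 siRNA arrays, a change of -1.44 ± 0.20 (SE, limma adjusted p = 0.00095). The lowest control array was still well above the highest siRNA array. SERPIND1, heparin cofactor II, gave 9.60, 9.79 and 9.62 in the control arrays and 8.88, 8.87 and 8.24 in the siRNA arrays. The SERPIND1 groups did not overlap and differed by -1.01 ± 0.15 (SE, limma adjusted p = 0.00143). SERPINA5, the protein C inhibitor, gave 7.64, 7.38 and 7.50 in the control arrays and 6.43, 6.60 and 6.50 in the siRNA arrays. SERPINA5 was lower on each siRNA array, with a change of -0.998 ± 0.10 (SE, limma adjusted p = 0.000143). SERPINF2 (alpha-2-antiplasmin), SERPINA6 (the cortisol carrier) and SERPINF1 (pigment epithelium-derived factor) changed by -1.12 ± 0.12, -1.04 ± 0.12 and -1.004 ± 0.14. SERPINA1, alpha-1-antitrypsin, did not pass: it was dim in this line, at 6.94, 6.87 and 6.93 in the control arrays and 6.72, 6.73 and 6.57 in the siRNA arrays, a change of -0.24 ± 0.07 (limma adjusted p = 0.0563).

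Clotting and fibrinolysis genes fell in 13 of 24 measured cases and rose in none (median log2 change -0.38 over all 24 and -0.76 over the 17 above background), and all 17 above background had a change below 0. KNG1, kininogen of the contact system, stood at 12.26, 12.27 and 12.32 in the control arrays and 10.77, 10.73 and 10.09 in the siRNA arrays. KNG1 lay below the controls on all 3 siRNA arrays, a change of -1.75 ± 0.16 (SE, limma adjusted p = 6.99e-05), or 3.37-fold lower. The 3 chains of fibrinogen, the clot protein, fell together. FGA, the alpha chain, gave 17.78, 17.96 and 17.80 in the control arrays and 16.85, 16.77 and 16.81 in the siRNA arrays. The FGA groups did not overlap and differed by -1.04 ± 0.13 (SE, limma adjusted p = 0.000697). FGB, the beta chain, gave 16.25, 16.35 and 16.07 in the control arrays and 15.56, 15.47 and 15.37 in the siRNA arrays. FGB was lower on each siRNA array, with a change of -0.76 ± 0.13 (SE, limma adjusted p = 0.00365). FGG, the gamma chain, gave 13.25, 13.52 and 13.39 in the control arrays and 12.19, 12.25 and 11.89 in the siRNA arrays. FGG lay below the controls on all 3 siRNA arrays, a change of -1.28 ± 0.12 (SE, limma adjusted p = 6.75e-05). CPB2, which restrains fibrinolysis, stood at 12.42, 12.44 and 12.52 in the control arrays and 11.33, 11.47 and 10.73 in the siRNA arrays. The CPB2 groups did not overlap and differed by -1.29 ± 0.16 (SE, limma adjusted p = 0.000466). HABP2, a protease that activates factor VII, and PROS1, the anticoagulant protein S, changed by -0.998 ± 0.17 and -0.80 ± 0.08.

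Complement genes fell in 7 of 23 measured cases (median log2 change -0.14 over all 23 and -0.62 over the 9 above background), and in 4 with median centring. C5, the source of the lytic complex and of an inflammatory fragment, stood at 13.46, 13.46 and 13.32 in the control arrays and 12.04, 12.02 and 12.11 in the siRNA arrays. The control and siRNA arrays were each tight, and C5 changed by -1.36 ± 0.06 (SE, limma adjusted p = 1.94e-06), or 2.56-fold lower. C3, the central component, gave 13.96, 13.95 and 14.19 in the control arrays and 13.49, 13.39 and 13.26 in the siRNA arrays. C3 was lower on each siRNA array, with a change of -0.65 ± 0.09 (SE, limma adjusted p = 0.00109). CFI, the protease that inactivates C3b and C4b, gave 9.90, 9.62 and 9.80 in the control arrays and 8.66, 8.80 and 8.69 in the siRNA arrays. CFI lay below the controls on all 3 siRNA arrays, a change of -1.06 ± 0.08 (SE, limma adjusted p = 2.94e-05). None of the list rose; MBL2, a lectin that starts the pathway and the brightest member without a call, overlapped between groups at 8.99, 9.06 and 8.72 in the control arrays and 9.46, 9.46 and 8.61 in the siRNA arrays.

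**Figure D2:**
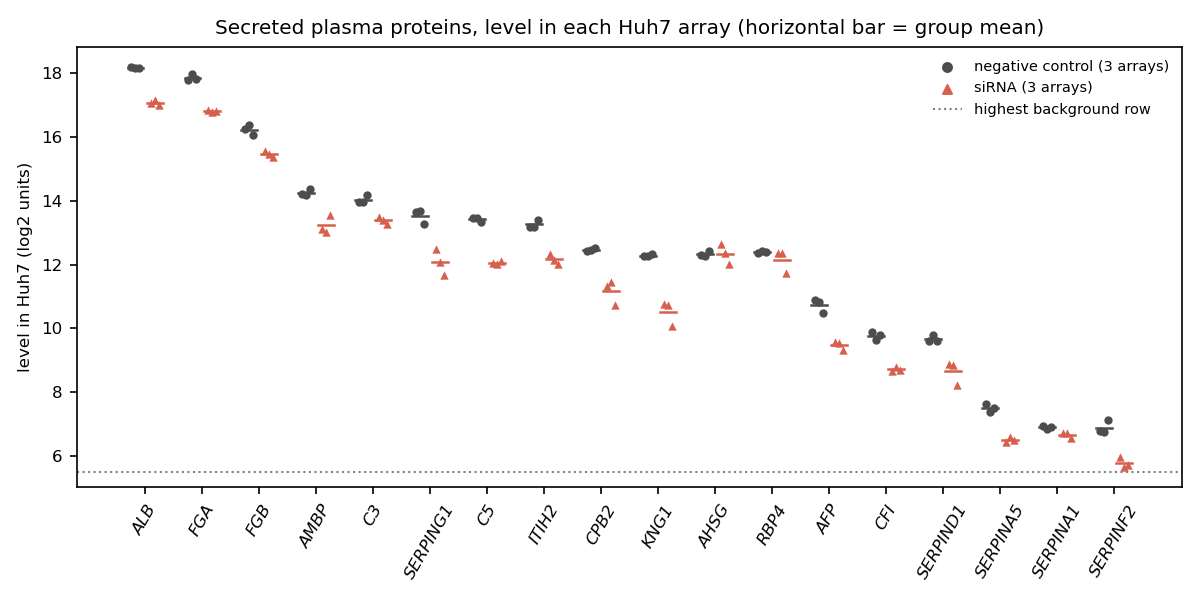
Log2 level of 18 secreted plasma protein genes in each Huh7 array, with control arrays as grey circles, siRNA arrays as red triangles and bars at the group means; the dotted line marks the highest background row at 5.50. The siRNA triangles lie below the control circles for all genes shown except AHSG, where the groups overlap, from ALB at the top (18.15 to 18.18 against 16.99 to 17.15) to SERPINF2 just above background. The genes were picked for the plot with their values known.

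Liver transcription factors were mixed: of 31 measured genes 5 fell and 1 rose (median log2 change -0.05 over all 31 and -0.15 over the 18 above background), with 3 lower under median centring. ONECUT1, also called HNF6, a factor of hepatocyte and bile duct development, stood at 12.94, 12.79 and 12.86 in the control arrays and 11.34, 11.39 and 10.999 in the siRNA arrays. The ONECUT1 groups did not overlap and differed by -1.62 ± 0.11 (SE, limma adjusted p = 1.07e-05), or 3.07-fold lower. HHEX, an early liver bud factor, gave 6.70, 6.72 and 6.97 in the control arrays and 5.84, 5.76 and 5.92 in the siRNA arrays. HHEX was lower on each siRNA array, with a change of -0.96 ± 0.09 (SE, limma adjusted p = 0.000103). NR5A2, the nuclear receptor LRH-1 of bile acid and cholesterol genes, gave 12.57, 12.62 and 12.56 in the control arrays and 12.04, 11.98 and 11.56 in the siRNA arrays. NR5A2 lay below the controls on all 3 siRNA arrays, a change of -0.73 ± 0.12 (SE, limma adjusted p = 0.00266). The median over all 31 factors turned to 0.02 with median centring. Among the factors without a call were FOXA2, CEBPA and PPARA. FOXA2, a pioneer factor of liver enhancers, gave 7.67, 7.58 and 7.59 in the control arrays and 7.47, 7.58 and 7.47 in the siRNA arrays, overlapping groups with a change of -0.11 ± 0.08 (limma adjusted p = 0.516). CEBPA, a factor of mature hepatocytes, gave 6.32, 6.78 and 6.90 in the control arrays and 6.76, 6.50 and 6.88 in the siRNA arrays, also overlapping, a change of 0.05 ± 0.17 (limma adjusted p = 0.932). PPARA, the fatty acid receptor, was within background in both groups.

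Ammonia disposal genes fell in 5 of 13 measured cases and rose in 1 (median log2 change -0.05 over all 13 and -0.31 over the 10 above background). CPS1, which makes carbamoyl phosphate in the entry step of the urea cycle, stood at 7.34, 7.37 and 7.53 in the control arrays and 6.05, 6.14 and 5.70 in the siRNA arrays. All siRNA arrays lay more than 1 unit below all controls, a change of -1.45 ± 0.11 (SE, limma adjusted p = 2.6e-05). GLUD1, which releases ammonia from glutamate in mitochondria, gave 11.003, 10.88 and 11.08 in the control arrays and 10.12, 10.09 and 10.12 in the siRNA arrays. The GLUD1 groups did not overlap and differed by -0.88 ± 0.07 (SE, limma adjusted p = 3.35e-05). GLUL, glutamine synthetase, gave 7.57, 7.59 and 7.90 in the control arrays and 7.06, 7.03 and 7.16 in the siRNA arrays. GLUL was lower on each siRNA array, with a change of -0.60 ± 0.09 (SE, limma adjusted p = 0.00164). GOT2, the mitochondrial aspartate aminotransferase, changed by -0.48 ± 0.08 (SE, limma adjusted p = 0.00305). ARG1, the arginase that releases urea, was lower but scattered, at 9.67, 9.56 and 8.89 in the control arrays and 8.73, 8.24 and 7.10 in the siRNA arrays. ARG1 lay below the controls on all 3 siRNA arrays, a change of -1.35 ± 0.34 (SE, limma adjusted p = 0.0337). Its adjusted p ran up to 0.157 across the alternatives and was above 0.05 on the Huh7 arrays alone and without any 1 of Huh7 control 1 (0.116), Huh7 control 2 (0.106), Huh7 siRNA 2 (0.0554), Hep3B control 1 (0.0514), Hep3B control 2 (0.0508) or Hep3B siRNA 2 (0.0503). ASS1, argininosuccinate synthetase, did not pass, at 6.23, 6.22 and 6.54 in the control arrays and 6.21, 6.13 and 6.21 in the siRNA arrays, a change of -0.14 ± 0.13 (limma adjusted p = 0.633).

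Of 43 measured genes of amino acid breakdown 13 fell and 1 rose (median log2 change -0.11 over all 43 and -0.33 over the 19 above background), and 6 fell with median centring. ACADSB, the dehydrogenase of short branched acyl-CoA from isoleucine, stood at 10.37, 10.01 and 10.14 in the control arrays and 9.09, 9.32 and 9.26 in the siRNA arrays. The ACADSB groups did not overlap and differed by -0.95 ± 0.11 (SE, limma adjusted p = 0.000297). BCKDHB, a subunit of the branched-chain ketoacid dehydrogenase, gave 7.71, 7.86 and 7.91 in the control arrays and 7.09, 7.04 and 7.02 in the siRNA arrays. BCKDHB was lower on each siRNA array, with a change of -0.78 ± 0.08 (SE, limma adjusted p = 0.000197). DBT, another subunit of that complex and the brightest member without a call, overlapped between groups at 7.30, 7.47 and 7.36 in the control arrays and 7.23, 7.49 and 7.42 in the siRNA arrays, a change of 0.01 ± 0.09 (limma adjusted p = 0.983). HGD, homogentisate oxidase of tyrosine breakdown, gave 10.77, 10.67 and 10.98 in the control arrays and 9.93, 9.93 and 10.20 in the siRNA arrays. HGD lay below the controls on all 3 siRNA arrays, a change of -0.79 ± 0.11 (SE, limma adjusted p = 0.00129). DMGDH, dimethylglycine dehydrogenase of choline breakdown, changed by -0.58 ± 0.07. CTH, the cystathionine gamma-lyase that makes cysteine, was the gene that rose, from within background, at 4.94, 5.22 and 4.94 in the control arrays and 5.72, 5.90 and 5.71 in the siRNA arrays. The CTH groups did not overlap and differed by 0.74 ± 0.13 (SE, limma adjusted p = 0.00365).

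Phase I enzymes fell in 10 of 44 measured cases and rose in 3 (median log2 change -0.05 over all 44 and -0.23 over the 20 above background), with 7 lower and 5 higher under median centring. ALDH1A1, which makes retinoic acid from retinal, stood at 15.75, 15.71 and 15.86 in the control arrays and 14.46, 14.53 and 14.51 in the siRNA arrays. ALDH1A1 was lower on each siRNA array, with a change of -1.27 ± 0.07 (SE, limma adjusted p = 3.76e-06). ALDH3A2, which oxidises fatty aldehydes, gave 9.44, 9.32 and 9.48 in the control arrays and 8.06, 8.09 and 7.76 in the siRNA arrays. ALDH3A2 lay below the controls on all 3 siRNA arrays, a change of -1.44 ± 0.09 (SE, limma adjusted p = 9.67e-06), or 2.72-fold lower. CYB5A, the cytochrome b5 that passes electrons to P450 enzymes and desaturases, gave 7.34, 7.65 and 7.28 in the control arrays and 6.80, 6.64 and 6.70 in the siRNA arrays. The CYB5A groups did not overlap and differed by -0.71 ± 0.13 (SE, limma adjusted p = 0.00639). CYP1A1, the P450 induced by the aryl hydrocarbon receptor, rose from within background, at 5.35, 5.36 and 5.24 in the control arrays and 6.90, 6.85 and 6.57 in the siRNA arrays. CYP1A1 was higher on each siRNA array, with a change of 1.46 ± 0.13 (SE, limma adjusted p = 5.87e-05). The major P450 enzymes of adult liver, CYP3A4 and CYP2E1, were within background on all arrays. AKR1C2, a ketosteroid reductase and the brightest member without a call, gave 13.45, 13.15 and 13.17 in the control arrays and 13.72, 14.05 and 13.70 in the siRNA arrays; its siRNA arrays all lay above the controls, a change of 0.57 ± 0.16 (limma adjusted p = 0.0553).

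Conjugating enzymes fell in 10 of 32 measured cases and rose in 1 (median log2 change -0.18 over all 32 and -0.46 over the 16 above background). SULT2A1, which sulfates steroids and bile acids, stood at 6.67, 6.79 and 6.82 in the control arrays and 5.16, 5.65 and 4.80 in the siRNA arrays. SULT2A1 lay below the controls on all 3 siRNA arrays, a change of -1.56 ± 0.19 (SE, limma adjusted p = 0.000453) that is a lower bound because the siRNA mean lay within background. GSTP1, a glutathione transferase low in adult hepatocytes, gave 10.61, 10.61 and 10.68 in the control arrays and 9.68, 9.67 and 9.70 in the siRNA arrays. The GSTP1 groups did not overlap and differed by -0.95 ± 0.10 (SE, limma adjusted p = 0.000225). The siRNA arrays of GSTP1 were almost equal to each other and almost 1 unit below the controls. MGST2 and GSTA4, further glutathione transferases, changed by -0.68 ± 0.07 and -0.65 ± 0.10. UGT2B4, a glucuronosyltransferase for bile acids, overlapped between groups at 10.74, 10.87 and 10.86 in the control arrays and 10.52, 10.89 and 9.95 in the siRNA arrays (limma adjusted p = 0.323).

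Bile acid and transport genes went both ways, with 4 of 31 measured genes lower and 2 higher. Of the 11 above background 3 fell and 2 rose, beside 17.4% and 16.2% of all named genes above background. The median of these 11 was -0.06 and turned to 0.01 with the deposited values and 0.04 with median centring. KLB, the co-receptor through which FGF19 restrains bile acid synthesis, stood at 9.64, 9.34 and 9.47 in the control arrays and 8.40, 8.55 and 8.72 in the siRNA arrays. KLB was lower on each siRNA array, with a change of -0.93 ± 0.11 (SE, limma adjusted p = 0.0004). SLC22A9, an organic anion transporter of liver, gave 9.31, 9.31 and 9.42 in the control arrays and 8.59, 8.40 and 8.50 in the siRNA arrays. SLC22A9 lay below the controls on all 3 siRNA arrays, a change of -0.85 ± 0.13 (SE, limma adjusted p = 0.00242). HSD17B4, which shortens the bile acid side chain in peroxisomes, gave 10.07, 9.997 and 10.02 in the control arrays and 9.39, 9.45 and 9.44 in the siRNA arrays. The HSD17B4 groups did not overlap and differed by -0.60 ± 0.07 (SE, limma adjusted p = 0.000253). ATP8B1, the flippase of the bile canaliculus, rose, at 7.47, 7.52 and 7.64 in the control arrays and 8.47, 8.38 and 8.43 in the siRNA arrays. ATP8B1 was higher on each siRNA array, with a change of 0.89 ± 0.07 (SE, limma adjusted p = 2.96e-05). ABCC2, the canalicular exporter of conjugates, was higher by a smaller step, at 10.18, 10.08 and 10.17 in the control arrays and 10.49, 10.49 and 10.49 in the siRNA arrays. ABCC2 lay above the controls on all 3 siRNA arrays, a change of 0.35 ± 0.06 (SE, limma adjusted p = 0.00433), and its adjusted p was 0.0779 on the Huh7 arrays alone. CYP7A1 and the bile acid importer SLC10A1 were within background.

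Among genes of lipoproteins and their handling, APOB and MTTP, which act in assembly, fell. Of 27 measured genes 6 fell and 2 rose (median log2 change -0.07 over all 27 and -0.39 over the 11 above background), with 3 lower under median centring. APOB, the structural protein of very low density lipoprotein and among the brightest rows of the line, stood at 18.15, 18.06 and 18.08 in the control arrays and 17.32, 17.24 and 17.32 in the siRNA arrays. The APOB groups did not overlap and differed by -0.80 ± 0.06 (SE, limma adjusted p = 1.78e-05). MTTP, which loads triglyceride onto APOB, gave 9.90, 9.82 and 10.09 in the control arrays and 9.13, 9.06 and 9.27 in the siRNA arrays. MTTP was lower on each siRNA array, with a change of -0.78 ± 0.09 (SE, limma adjusted p = 0.000331). APOC1, a small apolipoprotein that restrains lipoprotein uptake, gave 9.49, 9.49 and 9.71 in the control arrays and 8.43, 8.65 and 8.56 in the siRNA arrays. APOC1 lay below the controls on all 3 siRNA arrays, a change of -1.02 ± 0.09 (SE, limma adjusted p = 5.42e-05), or 2.02-fold lower. On the uptake side LRP1, a remnant receptor, rose, at 8.78, 8.68 and 9.08 in the control arrays and 9.57, 9.35 and 9.84 in the siRNA arrays. The LRP1 groups did not overlap and differed by 0.74 ± 0.13 (SE, limma adjusted p = 0.00522), with an adjusted p of 0.0582 on the Huh7 arrays alone. APOA1, the main protein of high density lipoprotein, was within background on all arrays.

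Cholesterol synthesis genes fell from the entry of the pathway to its last step: of 18 measured genes 10 fell and none rose (median log2 change -0.44 over all 18 and -0.48 over the 16 above background), and 10 fell with median centring as well. At the entry, ACAT2, which joins acetyl-CoA units, stood at 10.79, 10.90 and 10.93 in the control arrays and 10.24, 10.32 and 10.03 in the siRNA arrays. ACAT2 was lower on each siRNA array, with a change of -0.67 ± 0.08 (SE, limma adjusted p = 0.000481). HMGCS1, the HMG-CoA synthase, gave 12.95, 12.84 and 12.88 in the control arrays and 12.33, 12.45 and 12.38 in the siRNA arrays. HMGCS1 lay below the controls on all 3 siRNA arrays, a change of -0.50 ± 0.06 (SE, limma adjusted p = 0.000668). IDI1, which isomerises the isoprenoid unit, gave 7.48, 7.57 and 7.57 in the control arrays and 7.03, 7.02 and 6.64 in the siRNA arrays. The IDI1 groups did not overlap and differed by -0.65 ± 0.10 (SE, limma adjusted p = 0.00271). SQLE, the squalene epoxidase of the sterol branch, changed by -0.42 ± 0.07 (SE, limma adjusted p = 0.00253), with an adjusted p of 0.0551 on the Huh7 arrays alone, and CYP51A1, the lanosterol demethylase, changed by -0.57 ± 0.08 (SE, limma adjusted p = 0.00155). MSMO1, the sterol methyl oxidase, stood at 11.49, 11.47 and 11.37 in the control arrays and 10.34, 10.55 and 9.90 in the siRNA arrays. MSMO1 was lower on each siRNA array, with a change of -1.18 ± 0.14 (SE, limma adjusted p = 0.000423), or 2.27-fold lower. NSDHL, EBP and SC5D, which act after it, changed by -0.47 ± 0.08, -0.49 ± 0.09 and -0.60 ± 0.09. DHCR7, the last step to cholesterol, gave 10.42, 10.45 and 10.81 in the control arrays and 9.60, 9.54 and 9.76 in the siRNA arrays. DHCR7 lay below the controls on all 3 siRNA arrays, a change of -0.93 ± 0.11 (SE, limma adjusted p = 0.000453).

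**Figure D3:**
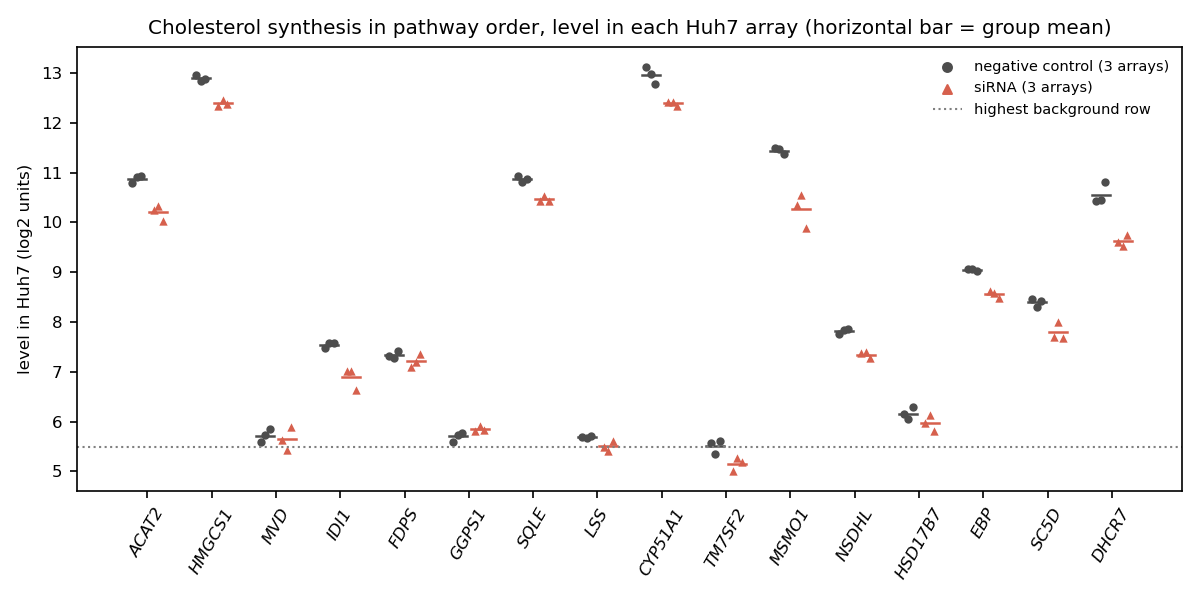
Log2 level of 16 cholesterol synthesis genes in each Huh7 array, ordered from the entry of the pathway on the left to the last step on the right, with control arrays as grey circles, siRNA arrays as red triangles and bars at the group means; the dotted line marks the highest background row at 5.50. The 10 genes that fell all have group means of 6.90 or more, while of the 6 without a call FDPS lies at 7.34 and 7.22 and the others at 6.16 or less.

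CCAAT boxes are bound by NF-Y, which acts beside sterol regulatory proteins on many genes of this pathway. The promoters of the 2 genes with the largest falls are shown with CCAAT, on either strand, in capitals. The MSMO1 window is chr4:165327469-165327668, plus strand, and the DHCR7 window chr11:71448394-71448593, minus strand, each the last 200 bases before the start in RefSeq (GRCh38.p14), written 5′ to 3′ along the gene.

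MSMO1: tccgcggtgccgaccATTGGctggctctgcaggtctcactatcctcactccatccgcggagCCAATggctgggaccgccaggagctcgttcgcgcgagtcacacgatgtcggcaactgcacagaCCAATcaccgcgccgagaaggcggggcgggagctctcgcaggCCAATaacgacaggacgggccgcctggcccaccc
DHCR7: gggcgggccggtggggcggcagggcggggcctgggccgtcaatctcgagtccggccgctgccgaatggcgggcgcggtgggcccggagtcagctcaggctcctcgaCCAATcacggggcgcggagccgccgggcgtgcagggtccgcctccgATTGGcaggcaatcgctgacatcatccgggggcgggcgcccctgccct

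MSMO1 holds 4 matches and DHCR7 holds 2. Of 16 cholesterol synthesis genes with a promoter in the table, 12 (75%) held CCAAT between 250 bases before and 50 after the start, against 35.7% of all 27305 promoters. These letters are short and common, and a match says nothing on binding.

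Genes of sterol sensing and cholesterol traffic fell in 6 of 23 measured cases and rose in 1 (median log2 change -0.13 over all 23 and -0.35 over the 17 above background). MBTPS2, the protease that releases sterol regulatory element-binding proteins from the membrane, stood at 10.94, 10.98 and 11.37 in the control arrays and 9.94, 10.11 and 10.06 in the siRNA arrays. The MBTPS2 groups did not overlap and differed by -1.06 ± 0.11 (SE, limma adjusted p = 0.000157). INSIG2, which holds those proteins back when sterol is plentiful, changed by -0.64 ± 0.08 (SE, limma adjusted p = 0.000761). SOAT1, which esterifies cholesterol for storage, gave 11.85, 11.88 and 11.98 in the control arrays and 11.14, 11.24 and 11.22 in the siRNA arrays. SOAT1 was lower on each siRNA array, with a change of -0.71 ± 0.06 (SE, limma adjusted p = 5.58e-05). STARD4, a carrier of free cholesterol, and TMEM97, which binds NPC1, changed by -0.81 ± 0.09 and -0.80 ± 0.09. OSBP, the oxysterol-binding exchanger between endoplasmic reticulum and Golgi, rose, at 12.32, 12.23 and 12.32 in the control arrays and 13.04, 13.03 and 13.11 in the siRNA arrays. OSBP lay above the controls on all 3 siRNA arrays, a change of 0.77 ± 0.06 (SE, limma adjusted p = 3.72e-05). SREBF2, the sterol-regulated factor itself, did not pass, at 6.20, 6.16 and 6.29 in the control arrays and 6.11, 6.04 and 6.12 in the siRNA arrays, a change of -0.13 ± 0.06 (limma adjusted p = 0.33). SREBF1 was within background.

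Of 30 measured genes of fatty acid synthesis, elongation and activation 9 fell and 2 rose (median log2 change -0.16 over all 30 and -0.27 over the 21 above background). ACSL4, which activates arachidonic acid and feeds it into membranes, stood at 13.52, 13.44 and 13.23 in the control arrays and 12.13, 12.15 and 12.07 in the siRNA arrays. The ACSL4 groups did not overlap and differed by -1.28 ± 0.08 (SE, limma adjusted p = 7.41e-06), or 2.42-fold lower. ELOVL2, an elongase of long polyunsaturated fatty acids, gave 11.17, 10.98 and 11.42 in the control arrays and 10.25, 10.37 and 10.21 in the siRNA arrays. ELOVL2 was lower on each siRNA array, with a change of -0.92 ± 0.12 (SE, limma adjusted p = 0.000658). ELOVL6, the elongase of palmitate, and FADS2, the delta-6 desaturase, changed by -0.63 ± 0.11 and -0.53 ± 0.09. SCD, the stearoyl-CoA desaturase, had 1 siRNA array far below the other two, at 14.73, 14.51 and 14.68 in the control arrays and 14.08, 14.12 and 13.25 in the siRNA arrays. SCD lay below the controls on all 3 siRNA arrays, a change of -0.82 ± 0.19 (SE, limma adjusted p = 0.0203); its adjusted p was 0.0709 without control array 1, 0.0676 without control array 3 and 0.13 on the Huh7 arrays alone. FASN, the fatty acid synthase, overlapped between groups at 8.02, 7.88 and 8.24 in the control arrays and 8.04, 7.81 and 8.10 in the siRNA arrays, a change of -0.06 ± 0.11 (limma adjusted p = 0.827), and so did ACACA, which makes its malonyl-CoA (-0.09 ± 0.09 (limma adjusted p = 0.683)). ME1, the malic enzyme that supplies NADPH, rose, at 13.53, 13.41 and 13.51 in the control arrays and 13.999, 14.31 and 13.98 in the siRNA arrays. The ME1 groups did not overlap and differed by 0.61 ± 0.09 (SE, limma adjusted p = 0.00186). ACSL5, another acyl-CoA synthetase, rose from within background, at 5.26, 5.25 and 5.47 in the control arrays and 6.28, 6.30 and 6.39 in the siRNA arrays. ACSL5 was higher on each siRNA array, with a change of 0.997 ± 0.09 (SE, limma adjusted p = 4.7e-05).

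Triglyceride and lipid droplet genes moved both ways by small steps: of 36 measured genes 3 fell and 4 rose (median log2 change -0.04 over all 36 and 0.11 over the 16 above background). Of these 16, 3 fell and 3 rose, close to the shares of all named genes above background, 17.4% lower and 16.2% higher. ABHD5, the activator of the droplet lipase, stood at 7.64, 7.69 and 7.47 in the control arrays and 8.08, 8.12 and 8.08 in the siRNA arrays. ABHD5 lay above the controls on all 3 siRNA arrays, a change of 0.49 ± 0.10 (SE, limma adjusted p = 0.013), with an adjusted p of 0.0546 without control array 3. LPIN2, a phosphatidate phosphatase, gave 8.15, 7.998 and 8.17 in the control arrays and 8.54, 8.42 and 8.73 in the siRNA arrays. The LPIN2 groups did not overlap and differed by 0.46 ± 0.09 (SE, limma adjusted p = 0.00822), with an adjusted p of 0.0825 on the Huh7 arrays alone. AGPAT5, an acyltransferase of the entry steps, fell, at 8.87, 8.82 and 8.94 in the control arrays and 8.53, 8.47 and 8.37 in the siRNA arrays. AGPAT5 was lower on each siRNA array, with a change of -0.42 ± 0.07 (SE, limma adjusted p = 0.00235), with an adjusted p of 0.0538 on the Huh7 arrays alone. PLIN2, a coat protein of lipid droplets, overlapped between groups at 11.17, 11.10 and 11.36 in the control arrays and 11.45, 11.32 and 11.35 in the siRNA arrays, a change of 0.16 ± 0.08 (limma adjusted p = 0.321).

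Of 30 measured genes of fatty acid uptake, mitochondrial oxidation and ketone bodies 9 fell and 2 rose (median log2 change -0.07 over all 30 and -0.24 over the 20 above background). SLC27A2, a fatty acid transporter and very long chain synthetase, stood at 7.50, 7.50 and 7.60 in the control arrays and 6.28, 6.32 and 5.85 in the siRNA arrays. SLC27A2 lay below the controls on all 3 siRNA arrays, a change of -1.38 ± 0.12 (SE, limma adjusted p = 5.9e-05), or 2.61-fold lower. SLC27A4, another fatty acid transporter, rose from within background, at 5.42, 5.32 and 5.43 in the control arrays and 5.86, 5.55 and 6.07 in the siRNA arrays. The SLC27A4 groups did not overlap and differed by 0.43 ± 0.11 (SE, limma adjusted p = 0.0377). Its adjusted p was 0.163 on the Huh7 arrays alone and from 0.0553 to 0.118 without any 1 of the 12 arrays other than Hep3B siRNA 1, Hep3B siRNA 2 and Huh7 siRNA 2. CPT1A, which admits fatty acids to mitochondria and sets the rate of their oxidation, gave 8.51, 8.61 and 8.88 in the control arrays and 8.004, 7.66 and 7.68 in the siRNA arrays. CPT1A was lower on each siRNA array, with a change of -0.89 ± 0.12 (SE, limma adjusted p = 0.00102). FABP1, the fatty acid-binding protein of liver, gave 6.75, 6.91 and 7.02 in the control arrays and 6.17, 6.26 and 6.07 in the siRNA arrays. FABP1 lay below the controls on all 3 siRNA arrays, a change of -0.73 ± 0.10 (SE, limma adjusted p = 0.000977). HADHB and HADHA, the subunits of the trifunctional protein, changed by -0.53 ± 0.07 and -0.49 ± 0.09, the latter with an adjusted p of 0.0537 on the Huh7 arrays alone, and HADH, which takes the shorter chains, by -0.49 ± 0.09. ETFA, which passes electrons from the dehydrogenases to the respiratory chain, overlapped between groups at 12.86, 12.50 and 12.80 in the control arrays and 12.52, 12.68 and 12.97 in the siRNA arrays (limma adjusted p = 0.998).

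Peroxisomal lipid genes fell in 9 of 28 measured cases and rose in 1 (median log2 change -0.09 over all 28 and -0.37 over the 16 above background), with 5 lower under median centring. CROT, which exports medium-chain acyl groups from peroxisomes, stood at 6.47, 6.35 and 6.53 in the control arrays and 5.29, 5.56 and 5.36 in the siRNA arrays. The CROT groups did not overlap and differed by -1.05 ± 0.11 (SE, limma adjusted p = 0.000218) that is a lower bound. PECR, an enoyl-CoA reductase, gave 8.39, 8.40 and 8.54 in the control arrays and 7.79, 7.76 and 7.64 in the siRNA arrays. PECR was lower on each siRNA array, with a change of -0.71 ± 0.08 (SE, limma adjusted p = 0.000259), and CAT, catalase, gave 9.44, 9.50 and 9.65 in the control arrays and 8.98, 8.96 and 8.87 in the siRNA arrays and changed by -0.60 ± 0.07 (SE, limma adjusted p = 0.000438). The first 2 enzymes of ether lipid synthesis went opposite ways. GNPAT, the acyltransferase that starts it, fell, at 10.26, 10.10 and 10.25 in the control arrays and 9.49, 9.70 and 9.60 in the siRNA arrays. GNPAT lay below the controls on all 3 siRNA arrays, a change of -0.61 ± 0.08 (SE, limma adjusted p = 0.000581). AGPS, which makes the ether bond next, rose, at 13.69, 13.60 and 13.55 in the control arrays and 14.24, 14.44 and 14.30 in the siRNA arrays. The AGPS groups did not overlap and differed by 0.72 ± 0.09 (SE, limma adjusted p = 0.000692).

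Of 33 measured phospholipid genes 4 fell and 2 rose (median log2 change -0.16 over all 33 and -0.26 over the 18 above background), and 2 fell with median centring. Of these 18, 4 fell and 2 rose, beside 17.4% and 16.2% of all named genes above background. PTDSS1, which makes phosphatidylserine, stood at 8.97, 8.95 and 9.14 in the control arrays and 8.38, 8.45 and 8.28 in the siRNA arrays. PTDSS1 was lower on each siRNA array, with a change of -0.65 ± 0.08 (SE, limma adjusted p = 0.000355). Of 31 sphingolipid genes 3 fell and none rose, and their median above background of -0.08 turned to 0.02 with median centring. All 3 were among the 24 above background, a smaller share than the 17.4% of all named genes above background that fell. GALC, the lysosomal galactosylceramidase, gave 6.53, 6.59 and 6.61 in the control arrays and 6.11, 6.11 and 5.90 in the siRNA arrays. GALC lay below the controls on all 3 siRNA arrays, a change of -0.54 ± 0.07 (SE, limma adjusted p = 0.000934).

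Glycolytic enzymes fell in many steps: of 28 measured genes 10 fell and none rose (median log2 change -0.15 over all 28 and -0.42 over the 14 above background), with 7 lower under median centring, and all 14 above background had a change below 0. GPI, the isomerase of glucose 6-phosphate, stood at 9.33, 9.29 and 9.58 in the control arrays and 8.52, 8.34 and 8.42 in the siRNA arrays. The GPI groups did not overlap and differed by -0.97 ± 0.09 (SE, limma adjusted p = 6.27e-05). TPI1, the triose isomerase, gave 8.81, 8.67 and 8.71 in the control arrays and 8.14, 8.15 and 8.14 in the siRNA arrays. TPI1 was lower on each siRNA array, with a change of -0.59 ± 0.07 (SE, limma adjusted p = 0.00036). PGK1, the first step that yields ATP, gave 11.25, 11.23 and 11.34 in the control arrays and 10.42, 10.37 and 10.35 in the siRNA arrays. PGK1 lay below the controls on all 3 siRNA arrays, a change of -0.89 ± 0.06 (SE, limma adjusted p = 1.67e-05), or 1.85-fold lower. PGAM1 and ENO1, which act after PGK1, changed by -0.56 ± 0.09 and -0.67 ± 0.11. LDHA, which turns pyruvate into lactate, gave 13.57, 13.51 and 13.58 in the control arrays and 13.05, 13.05 and 13.04 in the siRNA arrays, with the siRNA arrays almost equal. The LDHA groups did not overlap and differed by -0.50 ± 0.05 (SE, limma adjusted p = 0.000208). GAPDH, often used as a reference gene, stood at 17.23, 17.19 and 17.24 in the control arrays and 16.76, 16.85 and 16.44 in the siRNA arrays. GAPDH was lower on each siRNA array, with a change of -0.54 ± 0.09 (SE, limma adjusted p = 0.00428), with an adjusted p of 0.0529 under median centring. The entry steps did not pass: the glucose transporter SLC2A1 gave 7.80, 7.62 and 7.91 in the control arrays and 7.65, 7.37 and 7.81 in the siRNA arrays (limma adjusted p = 0.519), and hexokinase HK2 changed by -0.17 ± 0.12 (limma adjusted p = 0.515). PKM, pyruvate kinase, changed by -0.31 ± 0.10 (limma adjusted p = 0.0859).

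The hypoxia list holds genes induced by hypoxia and also ARNT, a subunit of hypoxia-inducible factor. Of its 29 measured genes 11 fell and 3 rose (median log2 change -0.17 over all 29 and -0.32 over the 22 above background), with 7 lower under median centring. P4HA1, a collagen prolyl hydroxylase, stood at 11.65, 11.59 and 11.89 in the control arrays and 10.10, 10.23 and 10.22 in the siRNA arrays. P4HA1 lay below the controls on all 3 siRNA arrays, a change of -1.53 ± 0.09 (SE, limma adjusted p = 7.41e-06), or 2.88-fold lower. BNIP3, a receptor for the removal of mitochondria, gave 11.59, 11.60 and 11.54 in the control arrays and 10.17, 10.16 and 9.87 in the siRNA arrays. The BNIP3 groups did not overlap and differed by -1.51 ± 0.10 (SE, limma adjusted p = 1.12e-05). PLOD2, a collagen lysyl hydroxylase, gave 14.60, 14.52 and 14.35 in the control arrays and 13.70, 13.66 and 13.61 in the siRNA arrays. PLOD2 was lower on each siRNA array, with a change of -0.83 ± 0.07 (SE, limma adjusted p = 5.85e-05). FAM162A, NDRG1 and MXI1, other targets of hypoxia-inducible factor, changed by -0.93 ± 0.10, -0.61 ± 0.11 and -0.54 ± 0.08. The 3 genes that rose were EGLN1, the oxygen-sensing hydroxylase of the factor, at 10.06, 9.86 and 9.95 in the control arrays and 10.59, 10.53 and 10.79 in the siRNA arrays (0.68 ± 0.10 (SE, limma adjusted p = 0.00169)), ARNT, its partner subunit (0.48 ± 0.07), and VEGFA, the vascular growth factor (0.42 ± 0.06). ERO1A, an oxidase of the endoplasmic reticulum and the brightest member without a call, overlapped between groups at 13.84, 13.92 and 13.73 in the control arrays and 13.95, 14.17 and 13.49 in the siRNA arrays.

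Of 27 measured genes of gluconeogenesis and glycogen 8 fell and none rose (median log2 change -0.07 over all 27 and -0.46 over the 14 above background). PYGL, liver glycogen phosphorylase, stood at 11.05, 10.99 and 10.97 in the control arrays and 9.73, 9.61 and 9.45 in the siRNA arrays. PYGL lay below the controls on all 3 siRNA arrays, a change of -1.41 ± 0.09 (SE, limma adjusted p = 7.95e-06), or 2.65-fold lower. Its activating kinase fell in 2 subunits, PHKB at 8.92, 8.95 and 9.10 in the control arrays and 8.49, 8.47 and 8.45 in the siRNA arrays (-0.52 ± 0.08 (SE, limma adjusted p = 0.00163)) and PHKA2 (-0.60 ± 0.10). PGM1, the phosphoglucomutase between glycogen and glycolysis, changed by -0.67 ± 0.10 (SE, limma adjusted p = 0.00124) with the siRNA mean within background, and PGM2, a related mutase, by -0.66 ± 0.10. G6PC3, a glucose 6-phosphatase of many tissues, changed by -0.60 ± 0.15 (SE, limma adjusted p = 0.0315) with the siRNA mean within background, and its adjusted p was 0.0705 with median centring, 0.117 on the Huh7 arrays alone, 0.0608 without Huh7 control 2, 0.0959 without Huh7 control 3, 0.0632 without Huh7 siRNA 2 and 0.105 without Huh7 siRNA 3. PCK1, FBP1 and G6PC1, enzymes of glucose synthesis, and the liver glycogen synthase GYS2, were within background on all arrays. Of 11 pentose phosphate genes 3 fell and none rose, and 1 fell with median centring.

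Pyruvate oxidation and the citric acid cycle had 15 of 29 measured genes lower and 1 higher (median log2 change -0.32 over all 29 and -0.45 over the 25 above background), with 10 lower under median centring. MPC1, a subunit of the mitochondrial pyruvate carrier, stood at 8.21, 8.27 and 8.10 in the control arrays and 7.36, 7.75 and 7.50 in the siRNA arrays. The MPC1 groups did not overlap and differed by -0.66 ± 0.10 (SE, limma adjusted p = 0.00221). PDHA1, the catalytic subunit of pyruvate dehydrogenase, gave 11.03, 10.93 and 11.001 in the control arrays and 10.46, 10.45 and 10.59 in the siRNA arrays. PDHA1 was lower on each siRNA array, with a change of -0.49 ± 0.07 (SE, limma adjusted p = 0.00113). PDK1, the kinase that switches that enzyme off, gave 9.20, 9.09 and 9.14 in the control arrays and 8.07, 7.95 and 7.93 in the siRNA arrays. PDK1 lay below the controls on all 3 siRNA arrays, a change of -1.17 ± 0.08 (SE, limma adjusted p = 1.58e-05). The RNA levels of PDHA1 and of this inhibiting kinase were thus both lower, and enzyme activity was not measured. Isocitrate dehydrogenase has several forms. IDH1, the NADP enzyme of the cytosol, gave 11.45, 11.38 and 11.33 in the control arrays and 10.26, 10.35 and 10.36 in the siRNA arrays. The IDH1 groups did not overlap and differed by -1.07 ± 0.07 (SE, limma adjusted p = 8.55e-06), and IDH2, its mitochondrial relative, gave 9.46, 9.38 and 9.56 in the control arrays and 8.65, 8.50 and 8.75 in the siRNA arrays and changed by -0.83 ± 0.09 (SE, limma adjusted p = 0.000171). IDH3A, a subunit of the NAD enzyme of the cycle, was higher, at 10.04, 9.97 and 10.14 in the control arrays and 10.55, 10.64 and 10.31 in the siRNA arrays. IDH3A was higher on each siRNA array, with a change of 0.45 ± 0.09 (SE, limma adjusted p = 0.0123); its adjusted p was 0.0505 without control array 2 and 0.0901 on the Huh7 arrays alone. MDH1, the cytosolic malate dehydrogenase, changed by -0.66 ± 0.09. CS, citrate synthase, overlapped between groups, a change of -0.07 ± 0.11 (limma adjusted p = 0.799).

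Of the subunits of oxidative phosphorylation that passed the test all fell, fewer of them with median centring. Complex I, the NADH dehydrogenase, had 7 of 32 measured subunits lower and none higher; all 27 above background had a change below 0, with a median of -0.31, and 1 fell with median centring. NDUFA12, an accessory subunit, stood at 10.83, 10.82 and 10.80 in the control arrays and 10.17, 10.06 and 10.11 in the siRNA arrays. NDUFA12 lay below the controls on all 3 siRNA arrays, a change of -0.70 ± 0.09 (SE, limma adjusted p = 0.000578), whereas NDUFS1, the large catalytic subunit, overlapped between groups (-0.07 ± 0.08 (limma adjusted p = 0.737)). Of 11 genes of complexes II and III and cytochrome c, 5 fell and none rose, and 1 fell with median centring. UQCRC2, a core subunit of complex III, gave 11.88, 11.79 and 12.07 in the control arrays and 11.04, 11.06 and 11.13 in the siRNA arrays. The UQCRC2 groups did not overlap and differed by -0.83 ± 0.08 (SE, limma adjusted p = 6.69e-05). Of 11 complex IV genes 5 fell, and 3 with median centring. COX6B1, which links the dimer of complex IV, gave 9.23, 9.27 and 9.20 in the control arrays and 8.60, 8.71 and 8.53 in the siRNA arrays. COX6B1 was lower on each siRNA array, with a change of -0.62 ± 0.11 (SE, limma adjusted p = 0.00516). COX8A, a small subunit of the same complex, varied widely, at 12.50, 12.58 and 12.91 in the control arrays and 11.52, 12.14 and 10.75 in the siRNA arrays. COX8A lay below the controls on all 3 siRNA arrays, a change of -1.19 ± 0.26 (SE, limma adjusted p = 0.0172), with an adjusted p of 0.0707 without control array 3 and 0.112 on the Huh7 arrays alone.

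ATP synthase and the exchange of ADP for ATP had 14 of 23 measured genes lower and none higher (median log2 change -0.43 over all 23 and -0.43 over the 23 above background), with 7 lower under median centring. ATP5F1B, the catalytic beta subunit, stood at 14.52, 14.33 and 14.65 in the control arrays and 13.50, 13.79 and 13.89 in the siRNA arrays. The ATP5F1B groups did not overlap and differed by -0.77 ± 0.11 (SE, limma adjusted p = 0.00109). ATP5PD, of the peripheral stalk, gave 13.87, 13.59 and 13.91 in the control arrays and 12.90, 12.996 and 13.17 in the siRNA arrays. ATP5PD was lower on each siRNA array, with a change of -0.77 ± 0.10 (SE, limma adjusted p = 0.000833). VDAC3, a pore of the outer membrane, gave 8.84, 8.79 and 8.76 in the control arrays and 7.97, 8.06 and 8.04 in the siRNA arrays. VDAC3 lay below the controls on all 3 siRNA arrays, a change of -0.77 ± 0.08 (SE, limma adjusted p = 0.000154). SLC25A4, an exchanger of ADP and ATP, VDAC1 and ATP5ME changed by -0.76 ± 0.10, -0.59 ± 0.09 and -0.58 ± 0.09.

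**Figure D4:**
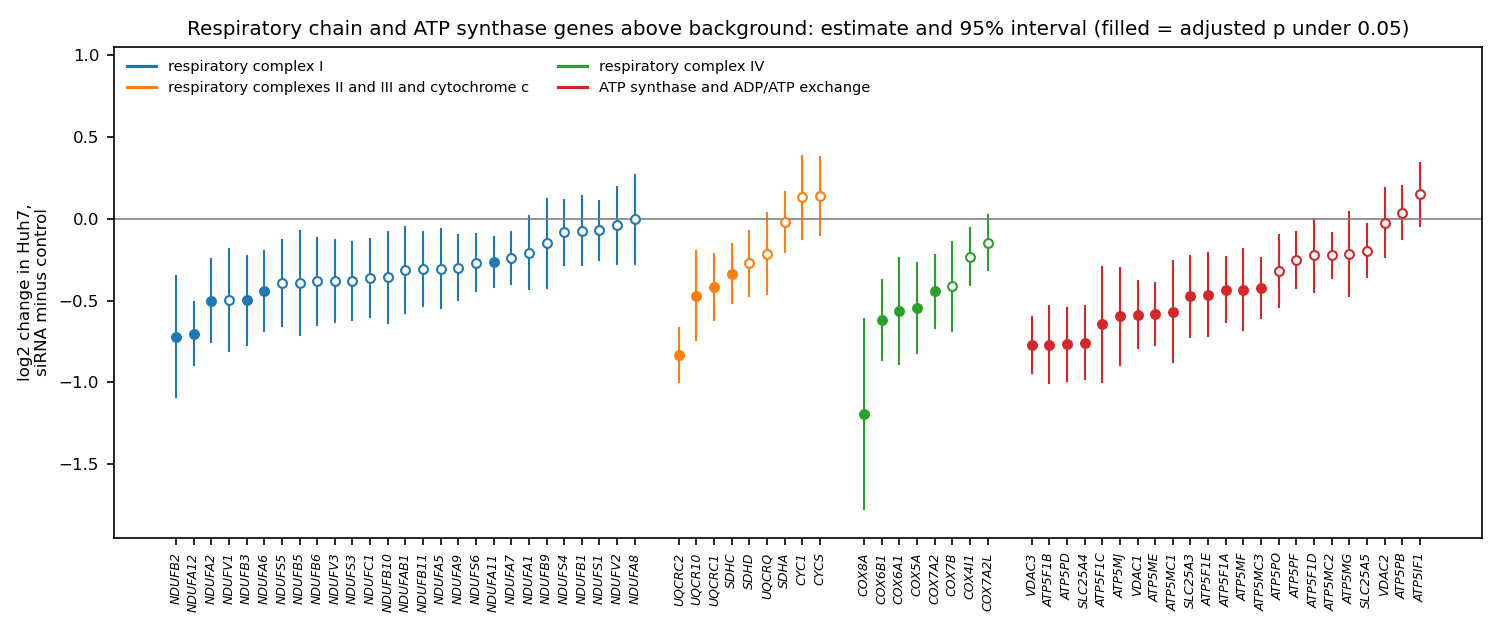
Log2 change in Huh7 (siRNA minus control, 3 arrays each) of respiratory chain and ATP synthase genes above background, sorted within each complex, with 95% intervals from the limma fit; filled points passed an adjusted p of 0.05. All 27 complex I points lie below 0, as do all 8 of complex IV, and complex II and III genes range from UQCRC2 at -0.83 to CYCS at 0.14.

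Factors that assemble these complexes or express mitochondrial DNA had fewer calls. Above background, 5 of 30 assembly factors fell and 1 rose, and 1 of 19 genes of mitochondrial biogenesis fell and 3 rose. Over all named genes above background 17.4% fell and 16.2% rose. Of 41 assembly factors 5 fell and 1 rose, with a median above background of -0.05 that turned to 0.03 as deposited and 0.05 with median centring. ATPAF1, which assembles the ATP synthase core, stood at 7.54, 7.66 and 7.46 in the control arrays and 7.11, 6.93 and 6.93 in the siRNA arrays. The ATPAF1 groups did not overlap and differed by -0.56 ± 0.08 (SE, limma adjusted p = 0.00115), and TIMMDC1, of complex I assembly, changed by -0.45 ± 0.07. Of 24 genes of mitochondrial biogenesis and gene expression 1 fell and 3 rose, with a median above background of -0.01 that turned to 0.06 and 0.08. SUPV3L1, the helicase that degrades mitochondrial RNA, rose, at 8.50, 8.56 and 8.64 in the control arrays and 9.10, 9.23 and 8.92 in the siRNA arrays. SUPV3L1 was higher on each siRNA array, with a change of 0.52 ± 0.09 (SE, limma adjusted p = 0.00344). PPRC1, a coactivator related to PPARGC1A, gave 5.54, 5.59 and 5.66 in the control arrays and 6.20, 6.04 and 6.47 in the siRNA arrays. PPRC1 lay above the controls on all 3 siRNA arrays, a change of 0.64 ± 0.10 (SE, limma adjusted p = 0.00239). TFAM, which packages mitochondrial DNA, gave 10.28, 10.07 and 10.25 in the control arrays and 9.93, 10.02 and 9.84 in the siRNA arrays and did not pass, a change of -0.27 ± 0.08 (limma adjusted p = 0.069).

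Energy sensing and insulin signalling had more rises than falls, with 6 of 34 measured genes higher and 2 lower (median log2 change 0.12 over all 34 and 0.21 over the 23 above background), and 8 higher with median centring. IGF1R, the receptor of insulin-like growth factor, stood at 8.10, 8.13 and 8.23 in the control arrays and 8.998, 8.90 and 8.74 in the siRNA arrays. The IGF1R groups did not overlap and differed by 0.73 ± 0.10 (SE, limma adjusted p = 0.000844). IRS1, the docking protein of that receptor and of the insulin receptor, gave 6.75, 6.47 and 6.85 in the control arrays and 7.46, 7.39 and 7.41 in the siRNA arrays. IRS1 was higher on each siRNA array, with a change of 0.73 ± 0.11 (SE, limma adjusted p = 0.00224). PRKAA1, a catalytic subunit of AMP-activated kinase, fell, at 13.53, 13.53 and 13.66 in the control arrays and 12.76, 12.91 and 12.74 in the siRNA arrays. PRKAA1 lay below the controls on all 3 siRNA arrays, a change of -0.77 ± 0.08 (SE, limma adjusted p = 0.000165). PRKAA2, the other catalytic subunit, gave 11.16, 11.03 and 11.22 in the control arrays and 11.34, 11.49 and 11.23 in the siRNA arrays, siRNA arrays just above the controls, with a change of 0.22 ± 0.11 (limma adjusted p = 0.333). TXNIP, which restrains glucose uptake, overlapped between groups at 6.21, 6.30 and 6.64 in the control arrays and 6.60, 6.46 and 6.69 in the siRNA arrays.

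The largest rises of the comparison lay outside these lists. TGFB2, a ligand of the transforming growth factor family, stood at 7.998, 7.82 and 8.0 in the control arrays and 10.20, 10.51 and 9.90 in the siRNA arrays. The TGFB2 groups did not overlap and differed by 2.27 ± 0.15 (SE, limma adjusted p = 1.15e-05). UCA1, a long non-coding RNA of urothelial and other cancers, gave 7.03, 6.77 and 6.48 in the control arrays and 9.17, 9.39 and 8.65 in the siRNA arrays. UCA1 was higher on each siRNA array, with a change of 2.31 ± 0.23 (SE, limma adjusted p = 0.000139). TMC7, a membrane protein of the transmembrane channel-like family, gave 6.45, 6.61 and 6.78 in the control arrays and 8.92, 8.98 and 8.95 in the siRNA arrays. TMC7 lay above the controls on all 3 siRNA arrays, a change of 2.34 ± 0.11 (SE, limma adjusted p = 1.89e-06), or 5.06-fold higher. NAALAD2, a peptidase of the cell surface, fell, at 7.75, 7.59 and 7.74 in the control arrays and 6.29, 6.28 and 5.95 in the siRNA arrays. The NAALAD2 groups did not overlap and differed by -1.52 ± 0.10 (SE, limma adjusted p = 1.14e-05). ANKRD1, an ankyrin repeat protein that YAP induces, rose as well, at 8.91, 8.86 and 8.50 in the control arrays and 12.84, 12.95 and 13.06 in the siRNA arrays (4.19 ± 0.12 (SE, limma adjusted p = 4.93e-08)). CD68, a lysosomal protein listed here as a macrophage marker, rose at 7.44, 7.60 and 7.73 in the control arrays and 8.95, 8.79 and 8.43 in the siRNA arrays. CD68 was higher on each siRNA array, with a change of 1.14 ± 0.13 (SE, limma adjusted p = 0.000289), while LYZ, another of that list, overlapped between groups at 14.49, 14.41 and 14.32 in the control arrays and 14.48, 14.60 and 13.99 in the siRNA arrays; the part of other cells in this was not tested. Rows of U3 RNA, which guides early ribosomal RNA cleavage, rose, for example SNORD3A at 8.002, 9.07 and 9.19 in the control arrays and 13.09, 12.37 and 13.22 in the siRNA arrays (4.14 ± 0.32 (SE, limma adjusted p = 2.73e-05)). Control array 1 and siRNA array 2 were the lowest of their groups in that row. The 2 SNORD3B copies gave the same values throughout, so which copy gave the signal is uncertain.

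The Huh7 response differed from that of Hep3B, tested as the interaction in 1 model, for 678 named genes (3.03%) and for 64 of the 817 list members. The count moved with single arrays: it was 383, 334 and 343 without Hep3B control 1, 2 or 3, 381 and 393 without Hep3B siRNA 2 or 3, 449 and 443 without Huh7 control 1 or 2, and 433 without Huh7 siRNA 1. Of the fibrinogen chains, FGA and FGB went opposite ways in the lines. FGA, lower in Huh7, stood at 13.94, 13.98 and 13.96 in the Hep3B control arrays and 14.66, 15.20 and 15.31 in the Hep3B siRNA arrays, a change of 1.098 ± 0.13 there, and the lines differed by -2.14 ± 0.19 (SE, limma adjusted p = 0.000572). FGB changed by 1.57 ± 0.13 in Hep3B and differed by -2.33 ± 0.18 (SE, limma adjusted p = 0.000402), and FGG, with a change of 0.06 ± 0.12 in Hep3B, differed by -1.33 ± 0.16 (SE, limma adjusted p = 0.003). CPS1 stood at 8.58, 8.63 and 8.56 in the Hep3B control arrays and 8.91, 9.08 and 9.09 in the Hep3B siRNA arrays, a change of 0.44 ± 0.11, so it was lower in Huh7 and higher in Hep3B, with a difference of -1.89 ± 0.16 (SE, limma adjusted p = 0.000461). Several falls of Huh7 had no counterpart of that size in Hep3B. ALDH1A1 changed by 0.01 ± 0.07 in Hep3B, a difference of -1.28 ± 0.10 (SE, limma adjusted p = 0.000402). PYGL changed by -0.40 ± 0.09, a difference of -1.002 ± 0.12 (SE, limma adjusted p = 0.00316), and GSTP1 by 0.04 ± 0.10, a difference of -0.99 ± 0.15 (SE, limma adjusted p = 0.0075). ACSL4 changed by -0.54 ± 0.08, a difference of -0.74 ± 0.11 (SE, limma adjusted p = 0.00868).

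The liver factor ONECUT1 fell further in Huh7 than in Hep3B, with a difference of -0.91 ± 0.15 (SE, limma adjusted p = 0.0126), and so did ALB, with -0.67 ± 0.07 (SE, limma adjusted p = 0.00118). AMP-activated kinase differed in both catalytic subunits: PRKAA1 by -0.69 ± 0.11 (SE, limma adjusted p = 0.0116), and PRKAA2, which changed by 1.45 ± 0.11 in Hep3B, by -1.23 ± 0.16 (SE, limma adjusted p = 0.00392). C3 fell less in Huh7: it changed by -1.59 ± 0.09 in Hep3B, a difference of 0.93 ± 0.13 (SE, limma adjusted p = 0.00535). LRP1 was higher in Huh7 and changed by -0.65 ± 0.13 in Hep3B, a difference of 1.39 ± 0.19 (SE, limma adjusted p = 0.00505). No cholesterol synthesis gene and none of the serpin, respiratory complex or ATP synthase genes had a called difference, which does not show that the lines acted alike. For MSMO1 the difference was -0.20 ± 0.20 (SE, limma adjusted p = 0.781), with a 95% interval from -0.64 to 0.24.

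**Figure D5:**
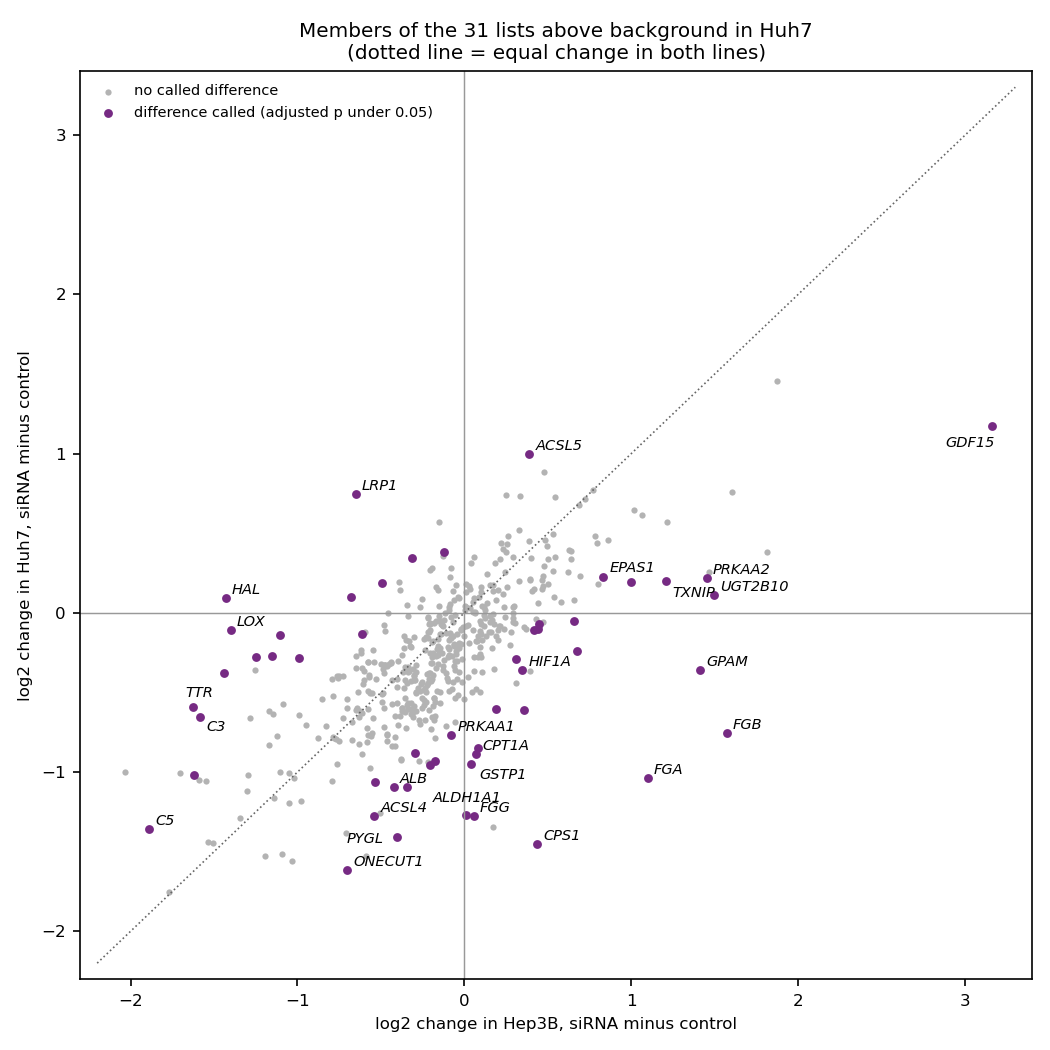
Each point is 1 member of the 31 lists above background in Huh7, with its log2 change in Hep3B on the horizontal axis and in Huh7 on the vertical axis (siRNA minus control, 3 arrays per group in each line). Purple points have a called difference between the lines, and the dotted line marks equal change; FGA, FGB and CPS1 lie at the lower right, lower in Huh7 and higher in Hep3B.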

How the data were processed

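Total RNA of 12 samples was measured on 1 array each, 3 per group. The authors deposited 1 log2 signal per row and array; the step that normalized arrays against each other and the genome build are not given in the sources used here. Per the submitters' processing notes the signals came from Agilent Feature Extraction 10.7.1.1, while the labels give an Affymetrix labelling protocol with Cy3 and the rows carry Affymetrix transcript cluster names, so the platform is not settled. Array medians of the deposited log2 values ran from 3.82 to 3.94.

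Of 70523 rows, 67528 were transcript clusters and 2995 control or other rows were left out, of which 23 background rows gave the level of 5.50. Names came from the platform annotation, where 23781 of 25324 probes had 1 symbol and 1543 had several and were left unnamed; 306 symbols were updated through RefSeq. Of several probes for 1 gene the brightest was taken. The arrays were quantile normalized together and fitted with limma 3.58.1 in R 4.3.3 (1 mean per group, trended eBayes, 8 residual degrees of freedom), with Benjamini-Hochberg adjustment over 66158 rows and a threshold of 0.05. Summaries and plots used Python 3.11.15, pandas 2.3.3 and matplotlib 3.10.9.

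The 31 gene lists, the 5 marker lists and the members named were chosen with earlier results of these data known. A fixed rule gave 275 genes to follow through the settings. These are the 12 largest changes each way, 72 fixed genes of which 59 were measured, and members of each list. Per list they are up to 6 called members in the leading direction, up to 2 in the other and the brightest member without a call. The text describes only part of these 275 genes. The genes AGPAT5, ATP5ME, EBP, FADS2, HABP2, HADH, MXI1, NSDHL, ORM2, PROS1, RBP4, SELENOP, SQLE, VDAC1 and VEGFA were added after their values were seen. On simulated data with 100 genes changed per size, the Huh7 comparison over 66158 rows recovered 46% of changes of 0.5 and 100% of changes of 1 log2 unit with 6 false calls; the difference between lines recovered 6% and 81% with 2 false calls. In that simulation a change of 0.5 was missed often, and more so in the difference. The changed genes were drawn from rows brighter than the median, with independent normal noise. The simulated Huh7 comparison had 152 calls, against 3080 called named genes in the real one. Its threshold after adjustment was therefore stricter, and these rates do not carry over to the real arrays. Promoter windows came from RefSeq (GRCh38.p14). The 19 alternatives are other scalings, the replicate numbers as a block, no variance trend, a filter on dim rows, the mean of probes, the Huh7 arrays alone and each array left out.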

Additional observations from a re-analysis of the deposited data

Results flagged for a closer look

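For 31 genes named in the text, the change in Huh7 differed from the change in Hep3B by the interaction test of the same limma fit, at an adjusted p under 0.05. Each value below is the Huh7 change minus the Hep3B change in log2 units. Followed genes that the text does not describe are left out, among them IGFBP1, with a called difference of -2.32. No cause of these differences was tested.

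For 17 of them the adjusted p stayed under 0.05 without each array in turn, which does not cover the other settings of the next part. Among secreted proteins it was -0.67 for ALB, -2.14 for FGA, -2.33 for FGB, -1.33 for FGG and 0.93 for C3. Among enzymes and transporters it was -1.89 for CPS1, -0.79 for GLUL, -1.28 for ALDH1A1, -0.99 for GSTP1, 0.66 for ABCC2, -0.74 for ACSL4 and -1.002 for PYGL. It was -0.91 for ONECUT1, 1.39 for LRP1, -0.69 for PRKAA1, -1.23 for PRKAA2 and 1.07 for TMC7.

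For the other 14 the adjusted p was above 0.05 without at least 1 array. The difference was -0.75 for ITIH2, 0.53 for C5, 0.60 for APOC1, -0.52 for FOXA2, -0.75 for HHEX, -0.58 for GLUD1 and 0.96 for ASS1. It was -0.93 for SLC22A9, 0.61 for ACSL5, -0.96 for CPT1A, -0.53 for IDH1, -1.01 for TXNIP, -0.75 for FAM162A and 0.94 for ANKRD1.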

How the results depend on the processing

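No called change of a gene followed here changed its direction. The order of lower against higher named genes, their median above background and a median of 5 lists turned with the scaling, as given beside them. Fitting the 6 Huh7 arrays by themselves gave 713 lower and 819 higher named genes in place of 1549 and 1531, with 48 lower and 5 higher hepatocyte genes, 36 lower and 7 higher lipid genes, and 40 lower and 8 higher energy genes; that fit has fewer arrays behind its spread. Median centring gave 898 lower named genes, 47 lower energy genes and 366 differences between the lines in place of 678. Asking for at least 1 log2 unit left 108 lower and 179 higher named genes, 22 lower and 1 higher among hepatocyte genes, 6 and 0 among lipid genes, and 6 and 1 among energy genes. Testing by themselves the rows above background in at least 1 group of either line gave 1345 differences and 22 higher energy genes. Without 1 array at a time, the lower named genes ran from 1122 to 1493 and the higher from 1174 to 1537, the differences from 334 to 723, hepatocyte genes from 63 to 78 lower and from 5 to 10 higher, lipid genes from 43 to 61 lower and from 10 to 14 higher, and energy genes from 52 to 80 lower and from 11 to 15 higher. Samples of 1 number did not deviate together (r = -0.22, -0.03 and 0.24 for the Huh7 pairs), so the numbers were not taken as pairs. With the replicate numbers as a replicate block, 1115 named genes were lower and 1178 higher, 5 hepatocyte genes were higher, and 156 differences passed. Of 290 genes followed through the 19 settings 223 were called, and 145 of these stayed called in each setting. Under that block the adjusted p of the change was 0.0773 for APOH, 0.0652 for COX8A, 0.066 for IDH3A, 0.0514 for SCD, 0.0525 for SLC27A4 and 0.093 for G6PC3. Of the 31 differences between lines listed above 19 did not pass under it, among them 5 that passed without each array in turn: ABCC2 (adjusted p = 0.0533), C3 (0.0669), ONECUT1 (0.0537), PRKAA1 (0.0696) and PRKAA2 (0.0504). The cause of these shifts was not tested.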
